A study of Arabidopsis thaliana with 6 samples.

Results

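The iron genes of *Arabidopsis thaliana* described here are 42 loci, listed by locus identifier, that act in iron uptake from the soil, its regulation, the movement of iron through the plant and its storage. All 42 were found among the 33602 loci of each deposited table. They were compared between wild-type seedlings of the accession Col and seedlings of that accession carrying the label bbx4-1, which names a mutant allele of BBX4, a gene for a B-box zinc finger protein. Whole seedlings of both genotypes had grown for 4 days at 22 °C under continuous red light, and no other allele or agent is named. The 6 samples, 3 biological replicates of either genotype, were merged by the authors into 2 columns, 1 per genotype. The sources used here do not give the lesion in bbx4-1, the number of lines or the iron supply of the medium. Values are FPKM, fragments divided by transcript length and by the mapped total of the library, a level per length by which genes can be set side by side.

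Plants take up iron poorly from soil because most of it is insoluble ferric iron. Arabidopsis roots acidify their surroundings, reduce ferric to ferrous iron and import the ferrous ion, and they secrete coumarins that mobilise iron. These steps are switched on when iron is short, through a cascade of basic helix-loop-helix (bHLH) transcription factors, and stored iron is kept in ferritin, mostly in plastids, where photosynthesis needs it. In the shoot and the vascular tissue, the chelators citrate and nicotianamine carry iron between organs.

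BBX4 itself had 88.97 FPKM in wild-type seedlings and 1095.7 FPKM in the bbx4-1-labelled column, a higher and not a lower level, so the transcript goes against a reading of that label as loss of the BBX4 transcript. Every direction below therefore refers to the bbx4-1-labelled column. Whether the 2 columns carry the right labels was not tested, and if they were exchanged, every sign below would turn. With 1 combined column per genotype, no test could be made, no p-value is given, and no difference has a replicate check. Differences are log2(FPKM + 1) in the bbx4-1-labelled column minus the same for wild-type, called the log2 ratio. Where a pair of levels is given, wild-type comes first. The added 1 makes this ratio understate the difference of genes with low levels. Fragment numbers were estimated from single fragments on transfer RNA genes, at about 48.1 M for wild-type and 49.8 M for the bbx4-1-labelled column. The 95% counting interval in parentheses after a log2 ratio comes from those numbers and leaves out variation between seedlings. In whole seedlings, fewer cells of a type and less RNA per cell cannot be told apart.

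Among the regulators, the subgroup Ib bHLH genes BHLH38, BHLH39, BHLH100 and BHLH101 encode partners of FIT in the activation of uptake genes. They are themselves activated by the subgroup IVc factors, bHLH proteins that bind E-boxes (CANNTG) and among these G-boxes (CACGTG). The 250 bases before the annotated start of the 4 genes are shown because all 4 transcripts had lower levels in the bbx4-1-labelled column. For BHLH39, at −0.10 (−0.27 to 0.062), the counting interval took in no difference. The sequences are from the RefSeq genome TAIR10.1, read 5′ to 3′ in the direction of the gene, and capitals mark each CANNTG match on either strand.
BHLH38, chr3:21085246-21085495, reverse strand: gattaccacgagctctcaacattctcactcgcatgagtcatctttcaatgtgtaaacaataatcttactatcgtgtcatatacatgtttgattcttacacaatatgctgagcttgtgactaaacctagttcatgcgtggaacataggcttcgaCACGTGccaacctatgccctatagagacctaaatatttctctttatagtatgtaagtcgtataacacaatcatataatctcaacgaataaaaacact
BHLH39, chr3:21087711-21087960, reverse strand: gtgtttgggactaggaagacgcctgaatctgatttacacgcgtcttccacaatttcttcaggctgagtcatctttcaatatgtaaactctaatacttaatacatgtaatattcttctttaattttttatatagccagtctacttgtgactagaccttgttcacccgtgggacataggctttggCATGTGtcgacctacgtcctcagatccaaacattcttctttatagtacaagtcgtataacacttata
BHLH100, chr2:17199455-17199704, reverse strand: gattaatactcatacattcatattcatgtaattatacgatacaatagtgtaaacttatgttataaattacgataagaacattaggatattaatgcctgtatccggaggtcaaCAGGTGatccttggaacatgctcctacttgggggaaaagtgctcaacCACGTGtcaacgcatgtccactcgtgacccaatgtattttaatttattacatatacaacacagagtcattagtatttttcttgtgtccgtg
BHLH101, chr5:1139634-1139883, reverse strand: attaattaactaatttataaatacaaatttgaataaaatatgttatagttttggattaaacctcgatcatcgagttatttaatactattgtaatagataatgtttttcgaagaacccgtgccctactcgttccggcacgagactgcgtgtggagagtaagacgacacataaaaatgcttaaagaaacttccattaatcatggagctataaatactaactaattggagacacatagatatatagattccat

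The BHLH38 and BHLH100 windows each held a G-box, which begins 97 bases before the start of BHLH38 and 91 bases before that of BHLH100. The BHLH39 window held an E-box that is not a G-box, and the BHLH101 window held neither motif. Of the 42 iron genes, 6 had a G-box in this window (14.3%), against 6.49% of the windows of 27443 nuclear protein-coding genes. An E-box, a motif that takes in every G-box, was present in 27 of the 42 windows (64.3%), against 55.32% of all windows. The windows of IRT1, IRT2, FRO2 and AHA2, the uptake genes, held no E-box. A match describes these letters only. The other 4 iron genes with a G-box were BTS, FER3, FER4 and OPT3. Their G-boxes are given in capitals with 10 bases on either side, and BTS had 3 of them.
BTS, chr3:6273810-6273835, forward strand: aagacgcttgCACGTGtcgagatgta
BTS, chr3:6273832-6273857, forward strand: tgtaatcggtCACGTGccaacctggg
BTS, chr3:6273886-6273911, forward strand: tgtgaatggcCACGTGctacaaaacc
FER3, chr3:20816096-20816121, reverse strand: cgtatccatcCACGTGtcaacaatcc
FER4, chr2:16833348-16833373, reverse strand: ctcgtacgtaCACGTGtctctcatcc
OPT3, chr4:9250406-9250431, reverse strand: ccttcaacggCACGTGcgtctcacac

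**Figure D1:**
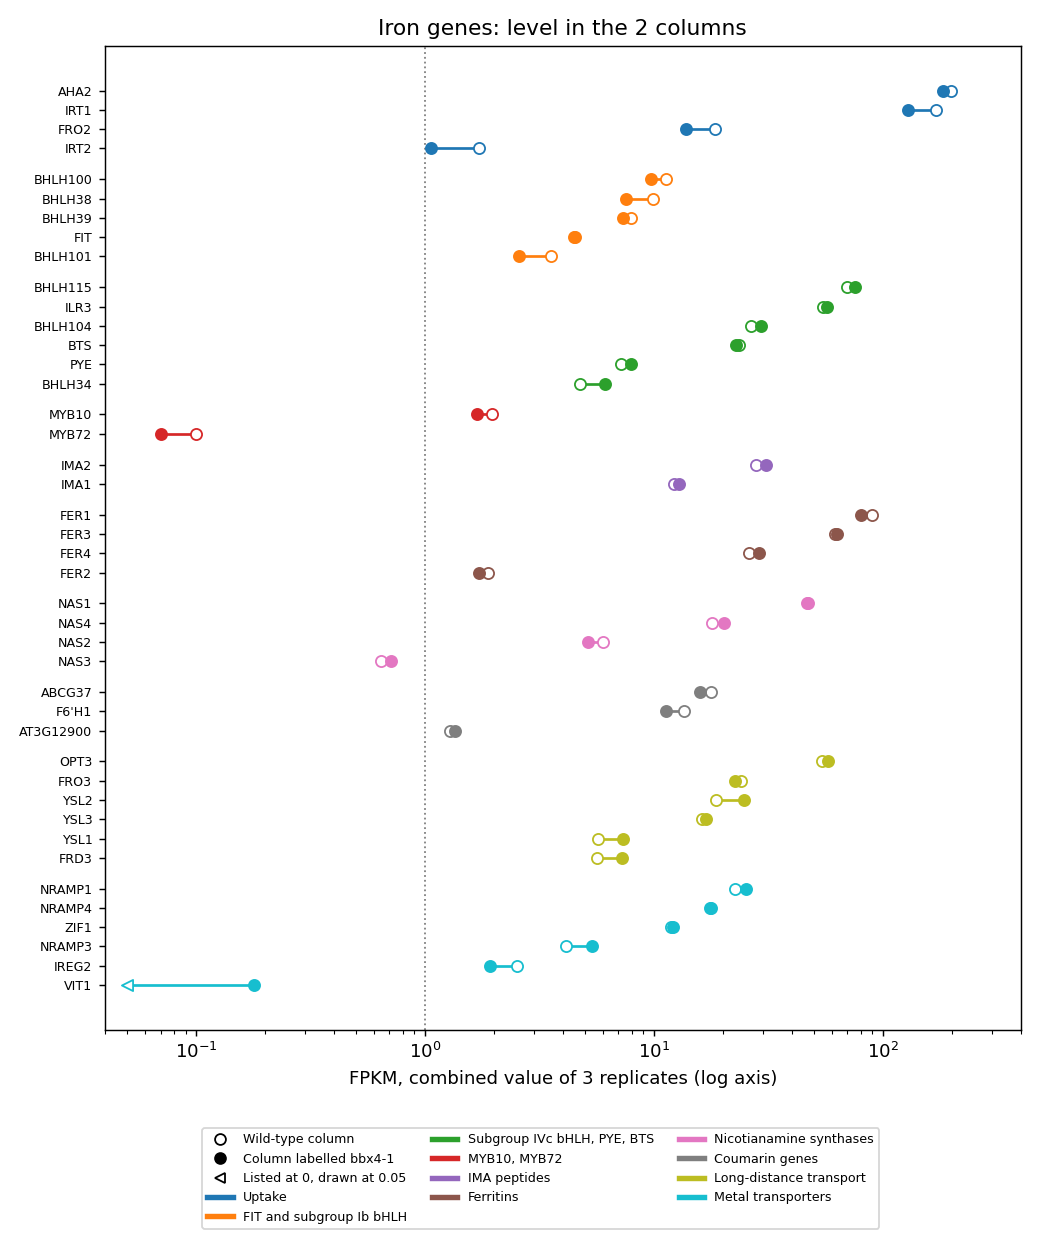
Level of the 42 iron genes as FPKM on a log axis, grouped by role, in the wild-type column (open circles) and the bbx4-1-labelled column (filled circles), each the authors' combined value of 3 replicates. Levels run from AHA2 at 198 FPKM to VIT1, listed at 0 in wild-type and drawn at the left edge, and the 4 uptake genes at the top have the filled circle to the left of the open one.

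As a whole, the iron genes did not lie to one side. Of the 42, 39 had a mean level of at least 1 FPKM over both columns and were kept for counting, and MYB72, NAS3 and VIT1 were not. The median log2 ratio of the 39 was 0.016, beside 0.028 for all 18931 loci kept, and it turned to −0.018 when the columns were scaled to the same upper quartile. Below 0 were 18 of the 39, or 22 under that scaling, against 40.4% of all loci. At least 1.2-fold lower were 6 iron genes (15.4%), where 4.1% of all loci passed that fold, and at least 1.2-fold higher were 5 (12.8%), where 5.14% did. At least 1.5-fold, 0 were lower, beside 0.555% of all loci, and 0 were higher, beside 0.565%. At 2-fold either way 0 passed, beside 0.148%. All these folds are of FPKM + 1. IRT2, at 0.616 of its wild-type FPKM, missed the count of genes 1.5-fold lower only through the added 1. Both counts past 1.2-fold depended on the added constant: with 5 in place of 1, they were 2 lower and 1 higher. By more than the counting interval, 13 iron genes were lower and 12 higher, while 12.8% of all loci were lower and 24.1% higher by that margin.

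Iron uptake at the root surface was the role with the lowest ratios. IRT1 (AT4G19690, chromosome 4, 10707344 to 10709015 of TAIR10.1), the main importer of ferrous iron in the root epidermis, had 170.23 FPKM in wild-type seedlings and 128.71 FPKM in the bbx4-1-labelled column. That is 0.756 of the wild-type level, a log2 ratio of −0.40 (−0.44 to −0.36), and among 33323 nuclear loci ordered by level IRT1 came 598th in wild-type seedlings but 827th under the bbx4-1 label. Over the settings tried, its log2 ratio lay between −0.44 and −0.39. FRO2 (AT1G01580), the reductase that makes the ferrous iron IRT1 imports, stood at 18.54 and 13.89 FPKM, 0.749 of the wild-type level and a log2 ratio of −0.39 (−0.47 to −0.31). IRT1 and FRO2, whose levels lie far apart, thus had nearly the same ratio. IRT2, a relative of IRT1 that lies beside it on chromosome 4 (10703348 to 10704838), stood far lower, at 1.72 and 1.06 FPKM, with a log2 ratio of −0.40 (−0.64 to −0.16). The value of IRT2 moved between −0.65 and −0.15 with the added constant, as its low level allows. AHA2, the proton pump that acidifies the rhizosphere, had the highest level of all iron genes, at 198 and 183.96 FPKM, and a smaller difference, at −0.11 (−0.13 to −0.084). So 4 of 4 uptake genes were lower beyond counting error, where 12.8% of all loci were. Counting error is small at high levels, however, and 16.1% of all loci kept had a log2 ratio at or below that of AHA2. Past 1.2-fold lower were 3 of 4, where 4.1% of all loci were. Their median log2 ratio was −0.40, or −0.23 with an added constant of 5.

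The regulators nearest to uptake pointed the same way, except for FIT itself. FIT (AT2G28160), the bHLH factor that IRT1 and FRO2 depend on, had 4.47 FPKM in wild-type seedlings and 4.53 FPKM in the bbx4-1-labelled column, a log2 ratio of 0.016 (−0.17 to 0.20) that turned to −0.016 with the columns scaled to the same upper quartile or −0.012 when centred on the median of all loci. Its interval takes in no difference, but also differences of up to 0.20. The Ib genes were all lower. BHLH38 stood at 9.95 and 7.59 FPKM, a log2 ratio of −0.35 (−0.52 to −0.18), and BHLH101 at 3.55 and 2.57 FPKM, also −0.35 (−0.59 to −0.11). BHLH100 stood at 11.27 and 9.68 FPKM, a log2 ratio of −0.20 (−0.35 to −0.050). BHLH39, the neighbour of BHLH38 on chromosome 3 (21086390 to 21087710), stood at 7.95 and 7.33 FPKM, −0.10 (−0.27 to 0.062), within counting error. For 3 of these 5 regulators the level was lower beyond counting error, and for 2 it was lower past 1.2-fold. The shares over all loci were 12.8% and 4.1%. The exons of BHLH38 overlap those of PIP5K4 on the opposite strand for 386 bases (35.7% of BHLH38), with PIP5K4 at 1.59 and 1.51 FPKM. Those of BHLH101 overlap GLU1, at 449.33 and 450.35 FPKM, for 79 bases (7.3%). The sources used here do not say whether counting used strand, so reads of such partners may be included. Exon overlaps with neighbouring genes, of at most 152 bases, also touch ILR3, BHLH115, FER2, FER4, F6'H1, FRO3, YSL2, IREG2, VIT1 and NRAMP1. For FER2 and FER4 the neighbour lies on the same strand, so counting by strand would not separate them.

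The IVc factors, which act above the Ib genes, taken with PYE and BTS, had ratios above 0 in 5 of 6 genes, by small amounts. Of all loci, 40.4% lay below 0. The IVc factors ILR3, BHLH34, BHLH104 and BHLH115 activate the Ib genes and PYE, BTS is a ubiquitin ligase that marks IVc factors for breakdown, and PYE is a bHLH repressor of iron distribution genes. BHLH34 had 4.78 FPKM in wild-type seedlings and 6.09 FPKM in the bbx4-1-labelled column, a log2 ratio of 0.29 (0.13 to 0.46). BHLH104 stood at 26.64 and 29.5 FPKM, 0.14 (0.069 to 0.22), and BHLH115, the most abundant of them, at 70.06 and 75.67 FPKM, 0.11 (0.052 to 0.17). These 3 exceeded counting error, and only BHLH34 among the 6 genes of this role passed 1.2-fold. Over all loci, 24.1% were higher beyond counting error and 5.14% at least 1.2-fold higher. ILR3 stood at 54.75 and 57.04 FPKM (0.058), PYE at 7.22 and 7.94 FPKM (0.12) and BTS at 23.53 and 22.9 FPKM (−0.037), each within counting error. Their median log2 ratio was 0.12, between 0.079 and 0.12 at every setting tried.

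The genes of the IMA peptides, small peptides that promote iron uptake, had ratios above 0. IMA1 (AT1G47400) stood at 12.31 and 12.88 FPKM, a log2 ratio of 0.060 (−0.11 to 0.23). IMA2 (AT1G47395), its neighbour on chromosome 1, stood at 28.05 and 31.01 FPKM, 0.14 (0.028 to 0.25). Both are annotated in the reference only as uncharacterized proteins, and their reads may be divided between close copies. MYB10, a MYB factor of the iron-deficiency response, stood at 1.96 and 1.69 FPKM, −0.14 (−0.38 to 0.10), with 26.0% of its exons overlapped by PIE1 on the opposite strand. MYB72, the other MYB gene among the members, was listed at 0.1 and 0.07 FPKM, about 5 and 4 fragments, too few to show a difference. Of its exons, 74.0% are overlapped by AT1G56165.

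**Figure D2:**
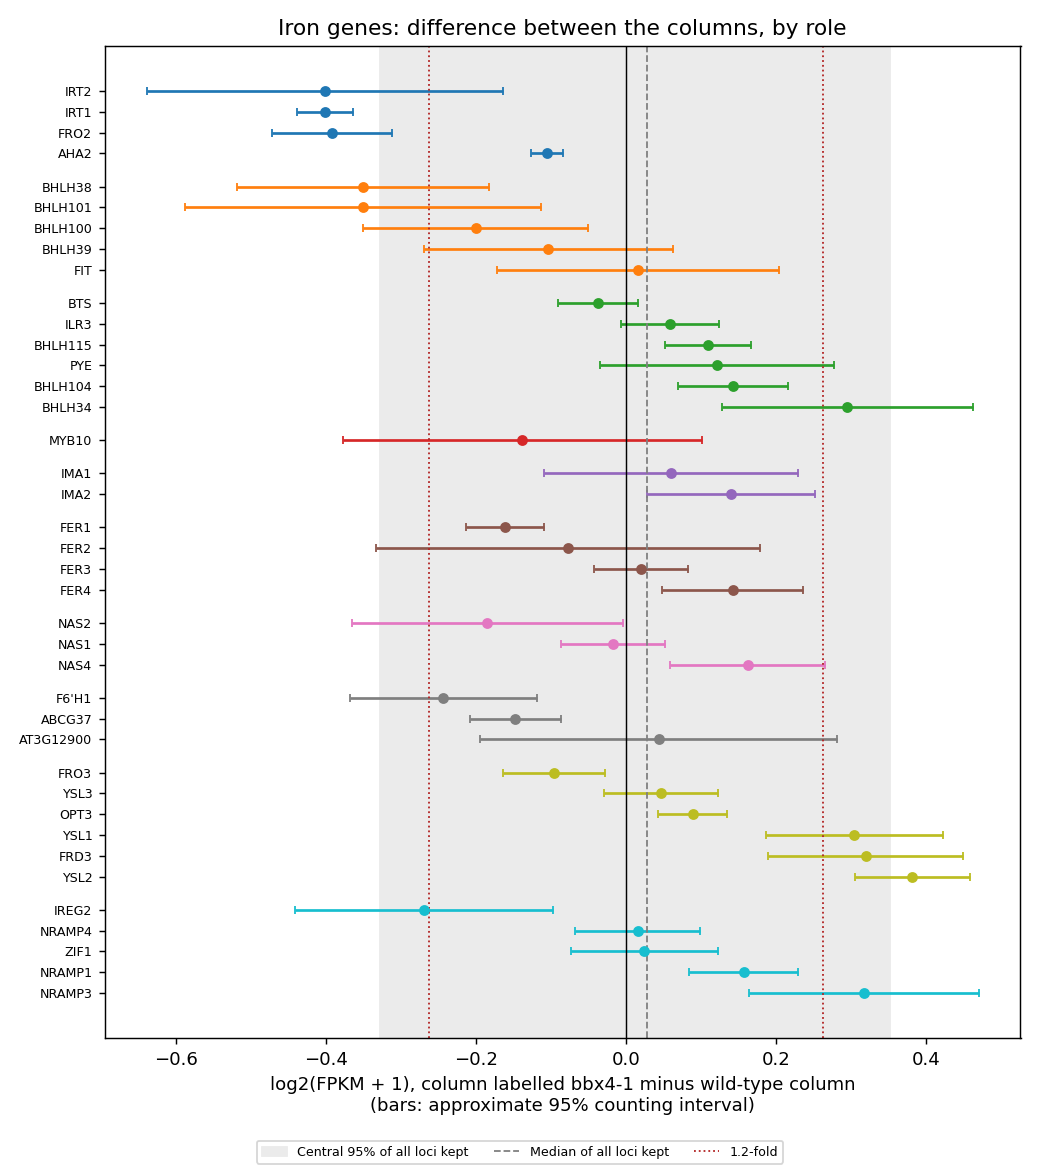
Difference in log2(FPKM + 1), column labelled bbx4-1 minus wild-type column, for the 39 iron genes with mean FPKM of at least 1, by role. Bars are approximate 95% counting intervals, the grey band is the central 95% of all loci kept (−0.33 to 0.35), the dashed line their median and the dotted lines 1.2-fold; the uptake genes IRT1, IRT2 and FRO2 and the Ib genes BHLH38 and BHLH101 lie left of the band, and YSL2 lies right of it.

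Coumarin secretion was represented by 3 genes, of which 2 were lower beyond counting error, where 12.8% of all loci were. F6'H1, the dioxygenase that makes scopoletin, had 13.5 FPKM in wild-type seedlings and 11.25 FPKM in the bbx4-1-labelled column, a log2 ratio of −0.24 (−0.37 to −0.12). ABCG37, a plasma membrane exporter of phenolic compounds, stood at 17.82 and 15.99 FPKM, −0.15 (−0.21 to −0.087). AT3G12900, annotated as an iron-dependent oxygenase, stood at 1.29 and 1.36 FPKM, 0.043 (−0.19 to 0.28). None of the 3 passed 1.2-fold by the log2 ratio with its added 1, though F6'H1 stood at 0.833 of its wild-type FPKM. Their median was −0.15.

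Iron storage showed no common direction. FER1, the ferritin known for its strong induction by excess iron, had 89.55 FPKM in wild-type seedlings and 79.99 FPKM in the bbx4-1-labelled column, a log2 ratio of −0.16 (−0.21 to −0.11). FER4 stood at 26.12 and 28.93 FPKM, 0.14 (0.048 to 0.24). Of its exons, 9.4% overlap AT2G40290 on the same strand, at 55.61 and 56.93 FPKM, whose reads may be included. FER3 stood at 62.16 and 63.04 FPKM, 0.020 (−0.043 to 0.083), and turned to −0.018 with the columns scaled to the same upper quartile. FER2, known as the seed ferritin, stood at 1.88 and 1.73 FPKM, −0.077 (−0.33 to 0.18). The order of the 4 levels, FER1, FER3, FER4 and FER2, was the same in both columns, and their summed level was 179.71 FPKM in wild-type and 173.69 FPKM in the other column. VIT1, which loads iron into vacuoles and is known from seeds, was listed at 0 in wild-type and at 0.18 FPKM, about 8 fragments, in the bbx4-1-labelled column, and 10.9% of its exons overlap RR14 on the opposite strand.

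Nicotianamine synthases, which make the chelator that carries iron within the plant, also differed among themselves. NAS1, the most abundant, stood at 47.13 and 46.54 FPKM, a log2 ratio of −0.018 (−0.087 to 0.051). NAS2 stood at 5.99 and 5.15 FPKM, −0.18 (−0.36 to −0.0045), and NAS4 at 17.94 and 20.19 FPKM, 0.16 (0.058 to 0.27). NAS3 was listed at 0.64 and 0.71 FPKM. These are close copies, so how reads were divided between them bears on each single value.

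Transport between organs was the role with the highest ratios. YSL2, a transporter of the yellow stripe family for metals bound to nicotianamine, had 18.78 FPKM in wild-type seedlings and 24.76 FPKM in the bbx4-1-labelled column, 1.318 times the wild-type level. Its log2 ratio of 0.38 (0.30 to 0.46) was the highest of the 39 iron genes kept and lay between 0.32 and 0.40 at every setting tried. YSL1, of the same family, stood at 5.73 and 7.31 FPKM, 0.30 (0.19 to 0.42), whereas YSL3 stood at 16.32 and 16.89 FPKM, 0.047 (−0.029 to 0.12). FRD3, which releases citrate into the xylem to carry iron to the shoot, stood at 5.62 and 7.26 FPKM, 0.32 (0.19 to 0.45). OPT3, a transporter of the phloem, stood at 54.38 and 57.89 FPKM, 0.089 (0.043 to 0.13). FRO3, a reductase expressed in the vasculature, was the exception in the other direction, at 24.16 and 22.55 FPKM, −0.095 (−0.16 to −0.027). Of the 6 genes of this role, 4 were higher and 1 was lower beyond counting error, and 3 passed 1.2-fold upwards. Over all loci, 24.1% were higher and 12.8% lower beyond counting error, and 5.14% were at least 1.2-fold higher. The median log2 ratio of the 6 genes was 0.20, between 0.14 and 0.22 at every setting tried.

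The remaining metal transporters were divided. NRAMP3, which with NRAMP4 releases iron from the vacuole in germinating seeds, stood at 4.13 and 5.39 FPKM, 0.32 (0.16 to 0.47), while NRAMP4 stood at 17.6 and 17.8 FPKM, 0.015 (−0.067 to 0.098). NRAMP1, a plasma membrane importer of manganese and iron, stood at 22.64 and 25.35 FPKM, 0.16 (0.085 to 0.23). NRAMP1 thus lay on the opposite side from IRT1, although both import metals into cells. IREG2, a vacuolar metal transporter induced with the uptake genes when iron is short, stood at 2.53 and 1.93 FPKM, −0.27 (−0.44 to −0.097). ZIF1, which brings nicotianamine into vacuoles, stood at 11.85 and 12.07 FPKM (0.024). The values of ZIF1 and NRAMP4 lay closer to 0 than the shift that scaling to the same upper quartile brings (−0.039), so they have no direction.

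**Figure D3:**
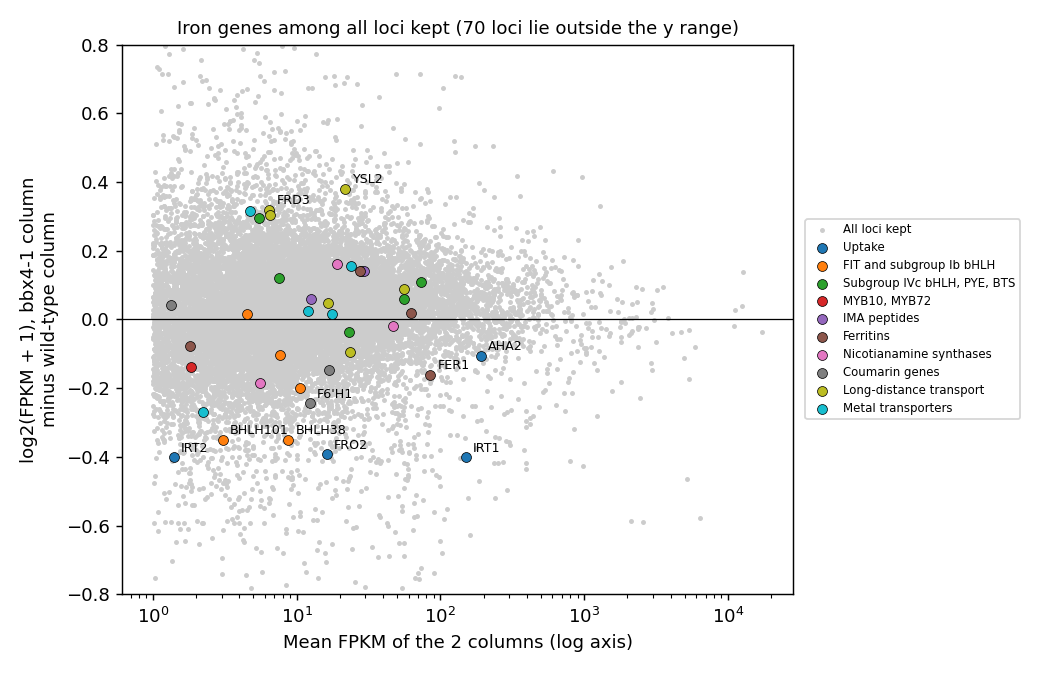
Log2 ratio of every locus with mean FPKM of at least 1 against its mean FPKM (log axis), with the iron genes coloured by role; 70 loci lie outside the range drawn. At its level of about 149 FPKM, IRT1 lies at the lower edge of the cloud of loci, and FRO2, BHLH38 and YSL2 lie near its edges at lower levels.

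Against all 18931 loci kept, 1.6% had a log2 ratio at or below that of IRT1 and 1.7% at or below that of FRO2, and YSL2 was at the 98.0th percentile. The differences of the iron genes are thus within the range that loci of these 2 columns show.

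Other genes of iron handling were set beside the members. Of 9 further iron-response genes kept, 7 were below 0 and 2 above, with a median log2 ratio of −0.092. Among them, 1 was at least 1.2-fold lower and 5 were lower beyond counting error. Of all loci, 40.4% were below 0, 4.1% at least 1.2-fold lower and 12.8% lower beyond counting error. CYP82C4, an enzyme of the coumarin pathway, had 22.75 FPKM in wild-type seedlings and 18.7 FPKM in the bbx4-1-labelled column (−0.27). MTP3, a vacuolar zinc transporter induced when iron is short, stood at 6.69 and 5.54 FPKM (−0.23), and BHLH121, a partner of the IVc factors, at 37.02 and 33.41 FPKM (−0.14). The highest of the list were BHLH11 at 0.16 and BGLU42 at 0.050. In 11 genes of iron transport in organelles, the median was 0.020, and −0.011 after scaling to the same upper quartile, with the plastid reductase FRO7 at 0.19 and its neighbour FRO6, a reductase of green tissue, at 0.32. All 6 genes of iron-sulphur cluster assembly were above 0, with a median of 0.11 and NEET highest at 0.23. The lowest were SUFS at 0.0055 and ISU1 at 0.014, both smaller than the shift that scaling to the same upper quartile brings.

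Root and leaf markers were measured because uptake genes are root genes. Of 26 root markers, 21 were kept. Of the others, ESB1, PLT1, PLT2, SMB and FEZ, each had a mean under 1 FPKM. The median log2 ratio of the 21 was −0.014 (0.13 when only genes of mean FPKM 5 or more were kept). Below 0 were 11 and above 0 were 9, with 2 at least 1.2-fold lower and 1 higher. Over all loci, 40.4% were below 0, 4.1% at least 1.2-fold lower and 5.14% at least 1.2-fold higher. The summed level of all 26 was 141.57 FPKM in wild-type and 143.93 FPKM in the bbx4-1-labelled column. Single markers of the root differed more. WER, an epidermal patterning factor, stood at 3.02 and 2.04 FPKM, with a log2 ratio of −0.40 (−0.63 to −0.17). At these low levels the added 1 understates the difference more than it does for IRT1. HKT1, a sodium transporter, stood at 3.02 and 2.32 FPKM (−0.28), and the root hair protein gene PRP3 at 18.34 and 15.72 FPKM (−0.21). The endodermal gene SCR had a log2 ratio of 0.21. The 8 leaf markers had a median of −0.031, from LHB1B1 at −0.21 to LHCB4.1 at 0.046. The part of tissue make-up in the values of the uptake genes was not tested.

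Genes for other nutrients, many of them also active in roots, were set beside the iron genes. The median log2 ratio was 0.12 in 16 phosphate genes, 0.022 in 13 nitrate genes and 0.070 in 16 copper and zinc genes. Below 0 were 3 of the phosphate genes, against 40.4% of all loci. The nitrate median turned to −0.015 under scaling to the same upper quartile. At least 1.2-fold lower were 0 genes in each of these 3 lists, where 4.1% of all loci passed, and a count of 0 in lists of this size is near that share. At least 1.2-fold higher, where 5.14% of all loci passed, were 4 phosphate genes, 2 nitrate genes and 1 copper and zinc gene. The phosphate-starvation RNA IPS1 had the highest ratio of these lists, at 1.03. FSD1, the iron superoxide dismutase, stood at 566.22 and 638.1 FPKM (0.17), and FRO4, a copper reductase related to FRO2, at 4.02 and 3.42 FPKM (−0.18).

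**Figure D4:**
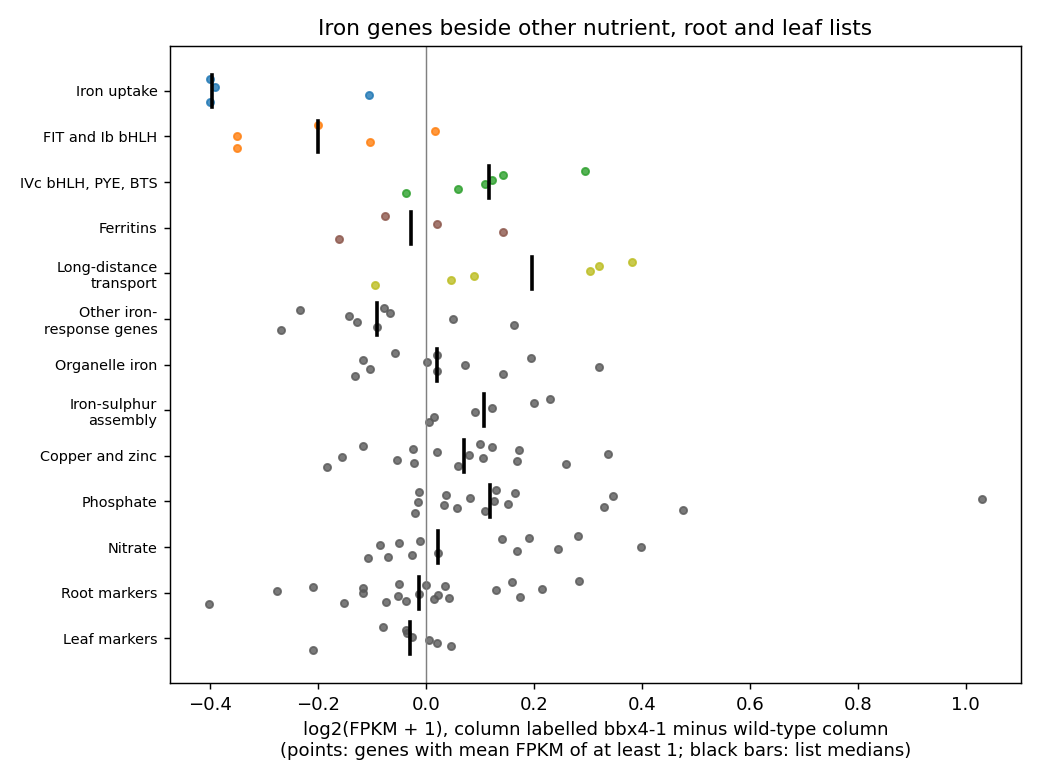
Log2 ratio of single genes with mean FPKM of at least 1 (points) and list medians (black bars) for the larger roles among the iron genes and for other lists. The uptake genes have a median of −0.40 and the Ib group with FIT −0.20, while root markers centre at −0.014 (0.13 with a filter at mean FPKM 5) and phosphate genes at 0.12.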

How the data were processed

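Messenger RNA was measured by RNA sequencing in whole seedlings, 3 replicates for each of 2 genotypes. The authors deposited FPKM, given to 2 decimals, in 1 table per genotype, and the replicates were combined, per the labels. Per the submitters' processing notes, the tools HISAT2 2.1.0 and edgeR 3.0.8 were used with build TAIR10; the sources used here do not give their roles and order, the counter, annotation, strand or filters. The column headed BBX4 belongs to bbx4-1 by the sample descriptions.

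From the deposited FPKM, log2(FPKM + 1) was compared between the columns with Python 3.11.15, numpy 2.4.6 and pandas 2.3.3, with loci kept at a mean FPKM of at least 1. Fragments per gene were approximated as FPKM times the length of all exons in TAIR10.1, divided by the median product of FPKM and length of single fragments on transfer RNA genes of at most 75 bp (20 genes in wild-type, 18 in the other column). The intervals assume Poisson counting and cover counting error only. No molecular identifiers are mentioned, so PCR copies may make them too narrow. Without a column per replicate, no test could be run. TAIR10 and TAIR10.1 share their nuclear sequence; gene names, coordinates and upstream sequences are from the RefSeq annotation of TAIR10.1, which matched 32835 loci by identifier.

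The members and lists were chosen with earlier results of these data known. Of 126 entries in the other lists, 14 whose symbol the annotation does not hold for that locus were dropped, and 112 were kept. All 42 iron genes are named, and full values were set for those with mean FPKM of at least 5 and the 8 lowest or 6 highest ratios. Genes named from the other lists are among the 3 highest and the 3 lowest ratios of their list, except 5 root markers named for their low level.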

Additional observations from a re-analysis of the deposited data

How the results depend on the processing

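Changing the added constant (0.1 or 5), the filter on mean FPKM (none, or 5) or the scaling (median of all loci, nuclear total or nuclear upper quartile), or leaving out close or adjacent copies, reversed the sign of no value past 1.2-fold. For single genes that outcome was fixed in advance. A filter leaves the ratio of a gene unchanged, and an added constant cannot turn its sign. The largest shift by scaling, −0.039, is too small to turn a value past 1.2-fold. Of 329 values recomputed, 317 stayed within the counting interval of the gene, the typical counting interval of the list or, for a count, 1.5 times, and 12 moved beyond it. The 317 include the single-gene ratios under the filters, which could not move. The count of iron genes at least 1.2-fold lower was 6, and 2 with an added constant of 5 or 3 with a filter at mean FPKM 5. The count at least 1.2-fold higher was 5, and 1 with an added constant of 5. The median of the iron genes lay between −0.018 and 0.024, so it has no direction, and the medians of the ferritins (−0.060 to 0.020), the nicotianamine synthases (−0.056 to 0.021), the metal transporters (−0.011 to 0.091) and the root markers (−0.042 to 0.13) also changed sign. No paired analysis was possible because the replicates were combined into 1 column per genotype, and for the same reason no replicate could be left out. Depth limits MYB72, NAS3 and VIT1, which rest on few fragments.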
